A study of Homo sapiens with 4 samples.

Results

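The MAX, MXD and MLX partner network comprises the transcription factors that share MAX or MLX as a dimer partner and that share or oppose the DNA binding of MYC. Its 10 genes, MAX, MXD1, MXD3, MXD4, MXI1, MNT, MGA, MLX, MLXIP and MYCN, were taken by gene symbol from the deposited table, without MYC itself. No measured value entered that rule, but the genes were chosen with earlier results of these data known. All 10 were found, each in a single row, among 57815 genes, and 9 of the 10 passed the filter on low values (an average over the 4 libraries of 1 FPKM or more, where FPKM is the number of fragments scaled to transcript length and to the mapped fragments of the library). MYCN did not pass it.

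MYC does not bind DNA alone. It forms a heterodimer with MAX, a small factor of the basic helix-loop-helix leucine zipper class, and MYC-MAX activates genes through the E-box, whose core is CACGTG. MXD1, MXD3, MXD4 and MXI1 compete with MYC for MAX and recruit the SIN3-HDAC corepressor, MNT does the same as a broadly expressed antagonist, and MGA brings MAX into a variant Polycomb complex, PRC1.6. MLX is a second hub, which pairs with MLXIP (also called MondoA) and MLXIPL (ChREBP) in the response to glucose and also with MNT and some MXD proteins.

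The E-box is the sequence that these dimers read, so the promoters of the network genes were searched for CACGTG, which is its own reverse complement and thus has the same matches on both strands. Windows reached from 250 bases before to 50 bases after each RefSeq transcription start (GRCh38.p14). Of 15 windows of the 10 genes, 3 held the motif, namely those of MXD4, MNT and MLX, against 7.26% of all 35116 windows of the same length. The 3 matches are shown because they place the recognition sequence of the network in front of a MAX-binding repressor, of the antagonist shared by MAX and MLX, and of MLX itself. A match is one of letters and not a measured binding site. The matches are printed on the strand of each gene with the motif in capitals. The motif begins 238 bases before the start of MXD4 (chr4:2262327-2262359, minus strand), 193 bases before that of MNT (chr17:2401233-2401268, minus strand) and 50 bases before that of MLX (chr17:42567035-42567070, plus strand).
MXD4: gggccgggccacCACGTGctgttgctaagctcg
MNT: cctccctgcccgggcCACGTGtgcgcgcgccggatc
MLX: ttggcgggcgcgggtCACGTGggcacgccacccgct

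RNA-Seq libraries were made from 2 biological replicates of control cells, wild type parental cells of the established human colorectal carcinoma line HCT116, and from 2 of 3′ WRE-Mut cells, labelled as the MYC 3′ TBE1 knockout. In the latter, CRISPR/Cas9 had removed TBE1, a TCF binding element of the Wnt-responsive element downstream of MYC, from both alleles. All cells were grown in the same medium. The 3′ WRE-Mut cells are 1 clone, made through successive rounds of transfection and sorting of single cells, whereas the control cells were not cloned. The deletion and other features of the clone thus cannot be told apart in these libraries. The p-values below measure only the spread between libraries of the same cells. For MYC, the paper also describes reduced expression in another clone that lacks TBE1, which is not among these libraries. Whether MAX, MXD, MNT, MGA or MLX transcripts differ between these groups is the comparison made below.

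The table gives an FPKM value per gene and library with no read counts, so depth is unknown. From 26851 to 29356 genes per library were above 0, and the correlation of log2(FPKM + 1) over protein-coding genes was 0.981 between the control libraries and 0.965 between the 3′ WRE-Mut libraries, where genes are not independent replicates. Of 9 markers of colorectal epithelium, 6 were at 1 FPKM or more in every library, while CDX1 was listed at 0 throughout and VIL1 did not exceed 0.148 FPKM. The summed level of these markers was 2621 and 2865 FPKM in control and 1810 and 1920 FPKM in the 3′ WRE-Mut libraries, a sum made up mostly of keratins. KRT18, a keratin of simple epithelia, fell by 1.46 on the log2 scale (limma, adjusted p = 0.0237 among protein-coding genes only and 0.150 among all tested genes). Among protein-coding genes its log2 fold change was −1.22 without control replicate 1, where it was not called, and −1.71 without control replicate 2. CDH1, the epithelial cadherin, was in the opposite order, at 42.3 and 24.3 FPKM in control and 49.5 and 73.0 FPKM in the 3′ WRE-Mut libraries (log2 fold change 0.89, limma, adjusted p = 0.103 among protein-coding genes). CDX2 was in the order of KRT18, at 10.6 and 7.3 against 4.6 and 1.35 FPKM (log2 fold change −1.43, limma, adjusted p = 0.0639 among protein-coding genes and 0.208 among all tested genes). KRT20, below the filter, was at 1.15 and 1.7 against 0.22 and 0.61 FPKM. Of 6 fibroblast markers only COL1A1 reached 1 FPKM, and the summed level of the list was 14.5 and 17.4 in control and 21.5 and 29.1 FPKM in the 3′ WRE-Mut libraries. No leukocyte or endothelial marker reached 1 FPKM. The part of these markers in the network values was not tested.

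None of the 9 tested network genes passed the test between control and 3′ WRE-Mut cells. In limma's moderated test on log2(FPKM + 1) across all 14815 tested genes (the all-gene fit), adjusted p-values (Benjamini-Hochberg) ran from 0.200 for MLXIP to 0.757 for MXD4, in a test that called 0.189% of all genes. Limited to the 11631 protein-coding genes (the coding fit), among which 8.33% were called, limma's adjusted p ran from 0.0960 for MXD1 to 0.795 for MXD4, again with 0 calls in the network. Every adjusted p that follows is limma's, from one of these fits or from a variant of them that is named with the value. At an unadjusted p under 0.05 the all-gene fit held 1 network gene, MLXIP, and the coding fit held 3, namely MXD1, MGA and MLXIP. Of the 9 log2 fold changes 8 were above 0 and 1, that of MAX, was below it, with a median of 0.32 against −0.03 over all tested genes.

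The groups were also compared by whether their library values overlapped. In 6 genes, MXD1, MXI1, MNT, MGA, MLX and MLXIP, both 3′ WRE-Mut libraries were above both control libraries, where 30.9% of protein-coding genes show that order, and in 1, MAX, both were below, where 32.0% do. MXD3 and MXD4 overlapped. Fewer transcripts per cell and fewer cells with such transcripts cannot be told apart in these bulk libraries.

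**Figure D1:**
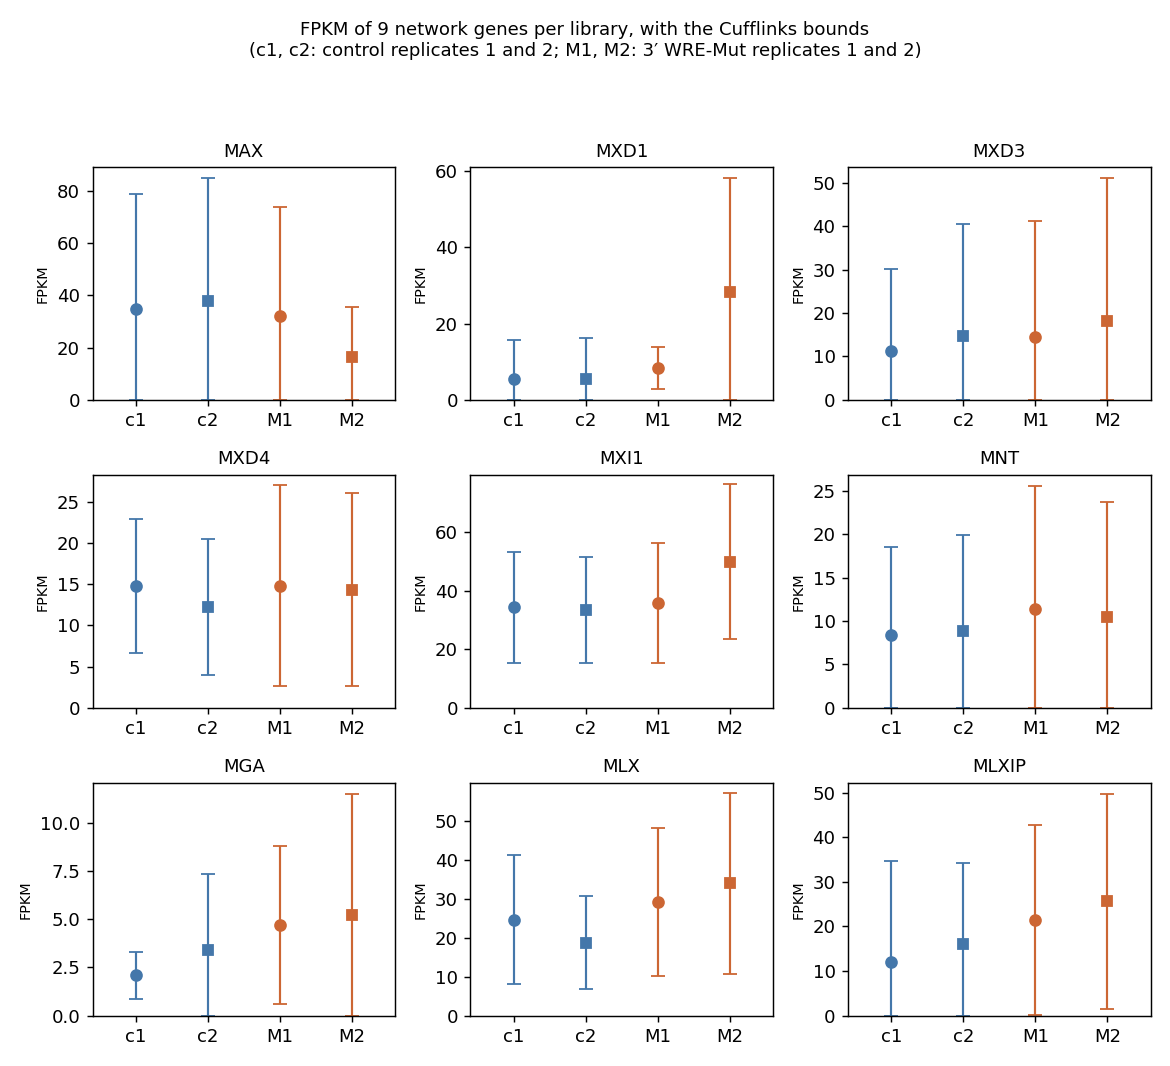
FPKM (linear axes from 0, a separate scale for each gene) of the 9 tested network genes in each of the 4 libraries, where points are the deposited values and bars run between the lower and upper bounds that Cufflinks gave that library. MXD1 stands at 28.3 FPKM in 3′ WRE-Mut replicate 2 and at 8.31 FPKM or less in the others, and in no gene are the bounds of the groups apart.

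MAX, the obligate partner of MYC, was measured at 34.8 and 37.9 FPKM in the control libraries and at 32.1 and 16.4 FPKM in 3′ WRE-Mut replicates 1 and 2. The first 3′ WRE-Mut library was thus close to the control libraries, and the second was lower than all others. The group means were 36.4 ± 2.17 and 24.3 ± 11.1 FPKM (SD, n = 2 each). The log2 fold change was −0.64 with a standard error of 0.36 in the all-gene fit. Its 95% interval reached from −1.59 to 0.31, which includes both no change and a level of 0.333 times that in control cells. The adjusted p was 0.346 in the all-gene fit and 0.211 in the coding fit. When 3′ WRE-Mut replicate 1 was left out of the coding fit, MAX was called (log2 fold change −1.10, adjusted p = 0.00162), in a setting that called 37.3% of all protein-coding genes. When replicate 2 was left out it was not called (−0.17, adjusted p = 0.722), in a setting that called 10.7%.

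MAX lies on chromosome 14 of hg19, where the annotation places it at 65472892 to 65569413 on the minus strand, and the deposited table gives it a locus of 188335 bases that it shares with 9 other genes. CHURC1-FNTB, a read-through gene on the other strand that overlaps MAX, was at 26.2 and 20.1 FPKM in control and 13.0 and 11.1 FPKM in the 3′ WRE-Mut libraries, and its neighbour CHURC1 was at 22.5 and 14.3 against 11.6 and 5.74 FPKM. Neither of these passed the test (adjusted p = 0.0651 and 0.0946 in the coding fit). FNTB, which also overlaps MAX on the other strand, had overlapping groups, with its values given below. Whether the libraries kept strand is not given in the sources used here, so reads of MAX and of the genes that overlap it are not separated. The part of the overlap in the MAX value was not tested.

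MYCN, the MYC paralog of neural tissue (chromosome 2, 16080672 to 16087129), was listed at 0 in 3 libraries and at 0.0104 FPKM in 3′ WRE-Mut replicate 2, where its upper bound was 0.0627 FPKM. Its antisense RNA MYCNOS, which overlaps it, did not exceed 0.00450 FPKM. MYC itself was 111 and 113 FPKM in control and 48.0 and 34.2 FPKM in the 3′ WRE-Mut libraries (log2 fold change −1.44, adjusted p = 0.149 in the all-gene fit and 0.0216 in the coding fit). In the coding fit the MYC log2 fold change was −1.45 without control replicate 1 and −1.43 without control replicate 2, with no call in either case. MYCL, the third MYC gene, was at 6.77 and 4.41 FPKM in control and at 2.53 and 1.09 FPKM in the 3′ WRE-Mut libraries. Its groups did not overlap, and its log2 fold change was −1.26 (adjusted p = 0.182 in the all-gene fit and 0.0556 in the coding fit). The coding fit called MYCL with median-ratio scaling (adjusted p = 0.0489), where 9.59% of all protein-coding genes were called. It also did so with the replicate number as a block (0.000514), where 24.6% were called. With quantile normalization it did not call MYCL (0.0567). As each library was left out, the log2 fold change of MYCL in that fit ran from −0.88 to −1.63.

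MXD1, the founding MAX-binding repressor, which is known from differentiating cells, had the largest log2 fold change among the network genes. Its values were 5.44 and 5.51 FPKM in control cells, 8.31 FPKM in 3′ WRE-Mut replicate 1 and 28.3 FPKM in replicate 2. The control libraries nearly coincided, and the 3′ WRE-Mut libraries differed 3.41-fold from each other. On the log2(FPKM + 1) scale that difference was 1.66, and 0.714% of protein-coding genes differed more between the same 2 libraries. The group means were 5.48 ± 0.0503 and 18.3 ± 14.2 FPKM (SD, n = 2 each), a ratio of 3.35. The log2 fold change was 1.35, with a 95% interval from −0.20 to 2.90 in the all-gene fit (adjusted p = 0.263) and from 0.29 to 2.41 in the coding fit (adjusted p = 0.0960). Leaving 3′ WRE-Mut replicate 1 out of the coding fit gave 2.18 (adjusted p = 2.07e-06, with 37.3% of protein-coding genes called), and leaving replicate 2 out gave 0.52 (0.272). MXD1 lies on chromosome 2 (70124820 to 70170077, plus strand) and overlaps SNRNP27, a spliceosome gene of the same strand, which was at 38.1 and 29.7 FPKM in control and 20.5 and 21.4 FPKM in the 3′ WRE-Mut libraries, the opposite order.

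MXI1, a MAX-binding tumor suppressor candidate (chromosome 10, 111967363 to 112047123 of hg19), was the most abundant of the repressors in every library. It was at 34.3 and 33.4 FPKM in control and at 35.8 and 49.9 FPKM in the 3′ WRE-Mut libraries. The groups did not overlap, but the lower 3′ WRE-Mut library lay only slightly above the control libraries. The log2 fold change of 0.31 had a 95% interval from −0.31 to 0.94 (adjusted p = 0.435 in the all-gene fit and 0.424 in the coding fit). It was 0.55 without 3′ WRE-Mut replicate 1 and 0.08 without replicate 2, and neither passed the test.

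MXD3 and MXD4, the remaining MXD repressors measured, showed no separation of the groups. MXD3, which is known from proliferating cells in S phase, was at 11.2 and 14.8 FPKM in control and at 14.6 and 18.2 FPKM in the 3′ WRE-Mut libraries (log2 fold change 0.32, 95% interval −0.33 to 0.97, adjusted p = 0.441). The MXD3 value ran from 0.13 without control replicate 1 to 0.51 without control replicate 2. MXD3 overlaps PRELID1, a mitochondrial lipid transfer gene on the other strand of chromosome 5. PRELID1 was at 74.7 and 59.1 FPKM in control and 127 and 166 FPKM in the 3′ WRE-Mut libraries (adjusted p = 0.0380 in the coding fit). In that fit the PRELID1 log2 fold change was 1.28 without control replicate 1 and 0.95 without control replicate 2, with no call in either case. The part of this overlap in the MXD3 value was not tested. MXD4 (chromosome 4, 2249159 to 2263836) was at 14.8 and 12.3 FPKM in control and at 14.8 and 14.4 FPKM in the 3′ WRE-Mut libraries. Its log2 fold change of 0.11 was the closest to 0 in the network, and its 95% interval from −0.43 to 0.64 leaves a level between 0.742 and 1.56 times that of control cells. Of all protein-coding genes, 86.6% had a larger absolute log2 fold change.

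MNT, the most widely expressed MAX-binding antagonist of MYC (chromosome 17, 2287367 to 2304398), was at 8.39 and 8.80 FPKM in control and at 11.4 and 10.4 FPKM in the 3′ WRE-Mut libraries. Both pairs of replicates lay close together and apart from each other, at means of 8.60 ± 0.285 and 10.9 ± 0.715 FPKM (SD, n = 2 each), a ratio of 1.27. The log2 fold change was 0.31 with a 95% interval from −0.20 to 0.83 (adjusted p = 0.383 in the all-gene fit and 0.432 in the coding fit).

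MGA, a very large protein that also carries a T-box domain (chromosome 15, 41913332 to 42065279), was the least abundant network gene above the filter. It was measured at 2.09 and 3.43 FPKM in control and at 4.69 and 5.22 FPKM in the 3′ WRE-Mut libraries. The 3′ WRE-Mut libraries were both higher, at a mean of 4.96 ± 0.376 against 2.76 ± 0.944 FPKM (SD, n = 2 each). The log2 fold change of 0.69 had a 95% interval from −0.07 to 1.44 and an adjusted p of 0.250 in the all-gene fit and 0.157 in the coding fit.

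MLX, the second hub of the network (chromosome 17, 40719090 to 40725257), was at 24.6 and 18.7 FPKM in control and at 29.1 and 34.0 FPKM in the 3′ WRE-Mut libraries. Both 3′ WRE-Mut libraries were above both control libraries, at 31.5 ± 3.44 against 21.6 ± 4.13 FPKM (SD, n = 2 each). The log2 fold change of 0.53 had a 95% interval from −0.08 to 1.14 (adjusted p = 0.262 in the all-gene fit and 0.191 in the coding fit). PSMC3IP, a recombination gene that overlaps MLX on the other strand of chromosome 17, was at 13.5 and 11.0 FPKM in control and 13.1 and 11.9 FPKM in the 3′ WRE-Mut libraries, with overlapping groups.

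MLXIP, the glucose-sensing partner of MLX, was at 12.1 and 16.1 FPKM in control and at 21.4 and 25.6 FPKM in the 3′ WRE-Mut libraries. Both 3′ WRE-Mut libraries were above both control libraries, and the adjusted p was the lowest of the network in the all-gene fit (log2 fold change 0.70, standard error 0.24, adjusted p = 0.200) and 0.110 in the coding fit. Leaving 3′ WRE-Mut replicate 1 out of the coding fit gave an adjusted p of 0.0195, where 37.3% of protein-coding genes were called. MLXIP shares its deposited locus on chromosome 12 (122516628 to 122631894) with no other gene. MLXIPL, the alternative MLX partner known for lipogenic genes, was not counted among the 10 genes and showed the opposite order, with 43.2 and 49.6 FPKM in control and 37.7 and 22.7 FPKM in the 3′ WRE-Mut libraries (log2 fold change −0.64, adjusted p = 0.283 in the all-gene fit and 0.165 in the coding fit). In the coding fit the MLXIPL log2 fold change was −0.99 without 3′ WRE-Mut replicate 1 and −0.29 without replicate 2. The ratio of MLXIP to MLXIPL was 0.281 and 0.324 in control and 0.567 and 1.13 in 3′ WRE-Mut cells. The sum of both partners was 55.3 and 65.7 FPKM in control and 59.0 and 48.4 FPKM in the 3′ WRE-Mut libraries, with overlapping groups.

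The remaining genes that share a deposited locus with a network gene were mostly small or low. An antisense RNA of MXI1, RP11-549L6.3, was at 7.94 and 4.91 FPKM in control and at 8.63 and 6.99 FPKM in the 3′ WRE-Mut libraries, and one of MNT, RP1-59D14.1, was at 9.24 and 13.1 against 9.59 and 8.88 FPKM, so in both cases the groups overlapped. RAB24, a small GTPase gene on the strand of MXD3 (176728462 to 176739758 on chromosome 5), was at 14.4 and 12.0 against 19.7 and 19.2 FPKM (adjusted p = 0.183 in the coding fit). FNTB, a farnesyltransferase subunit gene that overlaps MAX on the other strand, was at 5.31 and 4.89 against 5.35 and 4.02 FPKM, with overlapping groups. Short RNAs within MXD1, MXD4 and MGA (snoU13, MIR4800 and MIR626) were listed at 17.9, 11.6 and 32.7 FPKM in a single 3′ WRE-Mut library each and at 0 in the other libraries, and the part of these entries in the values of their host genes was not tested.

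**Figure D2:**
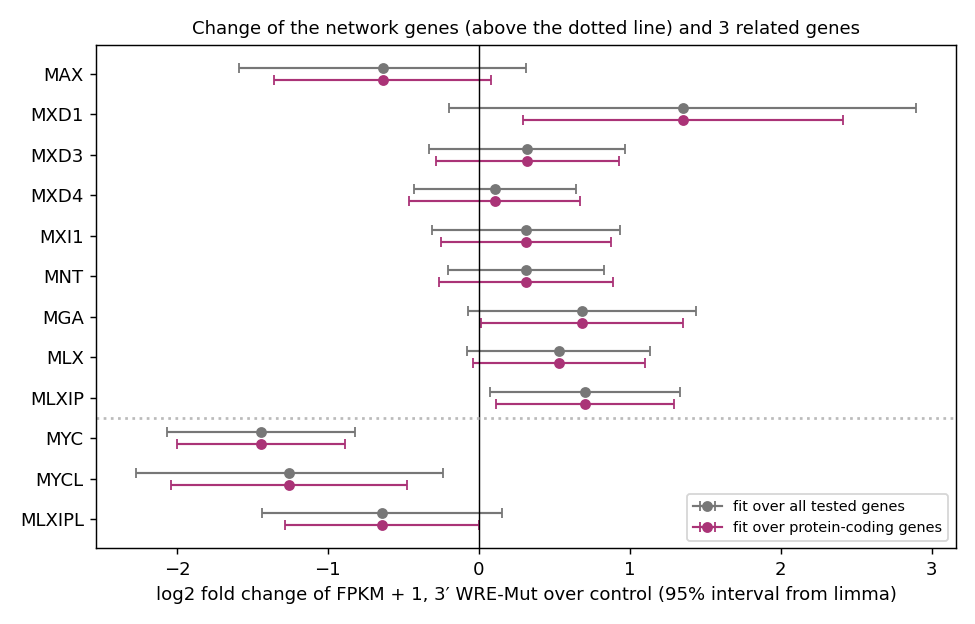
Log2 fold change of FPKM + 1 in 3′ WRE-Mut over control cells (points) with its 95% interval from limma (bars), for the fit over all tested genes and the fit over protein-coding genes, for the 9 tested network genes and, under the dotted line, MYC, MYCL and MLXIPL. MAX is the only network gene below 0, at −0.64, and the intervals of MAX, MXD3, MXD4, MXI1, MNT and MLX cover 0 in both fits.

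FPKM is scaled by transcript length, so the levels of different genes can be ordered within a library. In control cells the order by mean FPKM was MAX (36.4), MXI1 (33.9), MLX (21.6), MLXIP (14.1), MXD4 (13.5), MXD3 (13.0), MNT (8.60), MXD1 (5.48), MGA (2.76) and MYCN (listed at 0). The library values of MLXIP, MXD4 and MXD3 overlapped, so these neighbours were not told apart. The order rests on the library values alone. The Cufflinks bounds of MAX in control replicate 1, from 0 to 79.0 FPKM, covered the values of MXI1 and MLX in that library. In 3′ WRE-Mut cells MXI1 came first (42.9 FPKM) and MLX second (31.5), followed by MAX (24.3), MLXIP (23.5), MXD1 (18.3), MXD3 (16.4), MXD4 (14.6), MNT (10.9) and MGA (4.96). Each gene from MLX to MXD3 overlapped its next neighbour. MAX was thus ahead of MLX in both control libraries, at 1.42 and 2.02 times its FPKM, and at 1.10 and 0.483 times in 3′ WRE-Mut replicates 1 and 2.

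The balance of MAX partners was described by summing their FPKM within each library, with no test, because the genes were chosen with earlier results of these data known and a sum of transcript levels is not a count of protein dimers. MYC, MYCN and MYCL together were at 118 and 117 FPKM in control and at 50.6 and 35.3 FPKM in the 3′ WRE-Mut libraries. The 6 MAX-binding repressors MXD1, MXD3, MXD4, MXI1, MNT and MGA together were at 76.2 and 78.2 FPKM in control and at 89.7 and 127 FPKM in the 3′ WRE-Mut libraries. The ratio of repressors to MYC genes was 0.646 and 0.668 in control and 1.77 and 3.58 in 3′ WRE-Mut cells, so the MYC genes exceeded the repressors in both control libraries and were exceeded by them in both 3′ WRE-Mut libraries. The ratio of the group means of this quantity was 4.08, and it was 5.45 and 2.70 when the first or the second 3′ WRE-Mut library was left out. Between the groups, the mean sum of the MYC genes differed by a factor of 0.365 and that of the repressors by a factor of 1.40. The MYC genes made up 60.8% and 60.0% of all MAX partner FPKM in control and 36.1% and 21.8% in 3′ WRE-Mut cells.

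MXI1 held the largest share of the repressor sum in every library, from 42.7 to 45.0% in control and at 40.0 and 39.4% in 3′ WRE-Mut cells. The share of MXD1 was 7.14% and 7.05% in control and 9.27% and 22.4% in 3′ WRE-Mut cells. MAX came to 17.9% and 19.4% of the summed FPKM of its partners in control cells, and to 22.9% and 10.1% in 3′ WRE-Mut replicates 1 and 2, which lay on both sides of the control libraries.

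**Figure D3:**
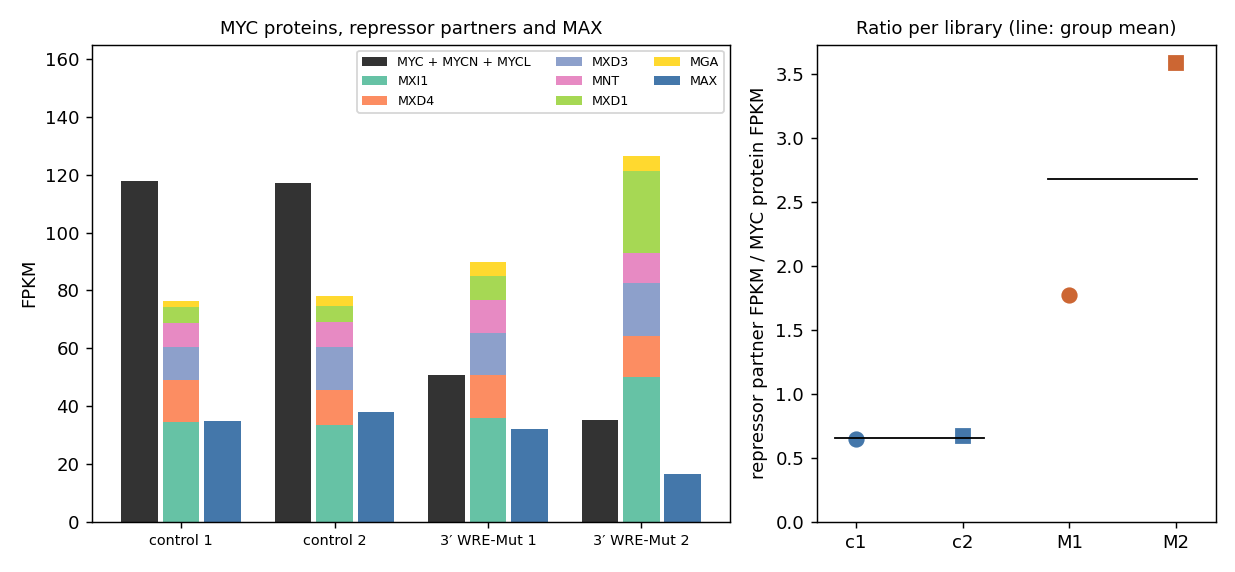
Left, FPKM in each library of the MYC genes together (black), of the 6 MAX-binding repressors stacked by gene and of MAX (blue), on a linear axis from 0. Right, the ratio of repressor FPKM to MYC gene FPKM in each library (c, control; M, 3′ WRE-Mut), with lines at the group means of 0.657 and 2.68.

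Cufflinks gave each FPKM value a lower and an upper bound, which express the uncertainty within a library. Of the 9 tested network genes, 6 had a lower bound of 0 in at least 1 library, and 3, MAX, MXD3 and MNT, in all 4, which held for 30.2% of protein-coding genes. MAX had an upper bound of 79.0 and 84.9 FPKM in control and of 74.1 and 35.7 FPKM in the 3′ WRE-Mut libraries. MXD1 in 3′ WRE-Mut replicate 2 reached from 0 to 58.0 FPKM, against 2.81 to 13.8 FPKM in replicate 1. MXI1, MXD4 and MLX had a lower bound above 0 in every library, as for MXI1 in control replicate 1 (15.3 to 53.3 FPKM) and in 3′ WRE-Mut replicate 2 (23.4 to 76.3 FPKM). In no network gene were the bounds of both 3′ WRE-Mut libraries apart from those of both control libraries, whereas they were apart in 0.267% of protein-coding genes, 7 genes higher and 24 lower in 3′ WRE-Mut cells.

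The proteins through which the network acts, and its targets, were described from whole lists drawn up by known role. Of 15 genes of the SIN3-HDAC corepressor, which the MXD proteins and MNT recruit, 0 were called higher and 1 lower in the coding fit, which called 8.33% of all protein-coding genes, so the list was near that share. Its median log2 fold change was 0.05 against −0.02 for all protein-coding genes. The lower one was RBBP4, a histone-binding subunit, at 78.9 and 69.0 FPKM in control and 37.0 and 40.1 FPKM in the 3′ WRE-Mut libraries (adjusted p = 0.0450 in the coding fit and 0.159 in the all-gene fit). In the coding fit the RBBP4 log2 fold change was −0.82 without control replicate 1 and −1.02 without control replicate 2, with no call in either case. SIN3A, the scaffold, was at 9.71 and 12.4 FPKM in control and 8.97 and 12.6 FPKM in the 3′ WRE-Mut libraries, with overlapping groups, and its paralog SIN3B at 18.3 and 18.4 against 23.2 and 34.2 FPKM (adjusted p = 0.172 in the coding fit).

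Of 11 genes of the PRC1.6 complex of MGA, 0 were called higher and 1 lower in the coding fit, again near the 8.33% of all protein-coding genes, with a median log2 fold change of −0.31 against −0.02. TFDP2, a dimer partner of E2F factors, fell from 47.5 and 43.4 to 25.4 and 20.2 FPKM (adjusted p = 0.0450 in the coding fit and 0.161 in the all-gene fit). In the coding fit its log2 fold change was −0.91 without control replicate 1 and −1.04 without control replicate 2, with no call in either case. CBX3, a heterochromatin protein of the complex, was at 50.1 and 46.8 FPKM in control and 29.4 and 32.0 FPKM in the 3′ WRE-Mut libraries and did not pass (adjusted p = 0.100 in the coding fit). The E2F6 subunit had a log2 fold change of −0.31. Of the 11 genes, 3 had a log2 fold change above 0, namely YAF2 (0.74), RYBP (0.58) and L3MBTL2 (0.30), and none of these passed.

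Of 5 targets of MLXIP-MLX, 4 were tested and 0 passed. ARRDC4, an arrestin that limits glucose uptake, was at 15.6 and 18.2 FPKM in control and at 31.1 and 28.0 FPKM in the 3′ WRE-Mut libraries. Its groups did not overlap, and its log2 fold change of 0.77 missed the threshold (adjusted p = 0.169 in the all-gene fit and 0.0757 in the coding fit). The coding fit called it with the replicate block (adjusted p = 0.0333), where 24.6% of all protein-coding genes were called. As each library was left out of the coding fit, the ARRDC4 log2 fold change ran from 0.67 to 0.88. It was not called without control replicate 1 or control replicate 2. The CACGTG motif begins 210 bases before its RefSeq start on chromosome 15, within the window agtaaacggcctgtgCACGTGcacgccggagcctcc (chr15:97960478-97960513 of GRCh38.p14, plus strand), shown because ARRDC4 had the largest absolute log2 fold change of the 4 tested targets. TXNIP, the best known target of MLXIP, was listed at 0 in both control libraries and at 0.0363 and 0.0440 FPKM in the 3′ WRE-Mut libraries, and held no CACGTG in its windows. An entry at 0 in this table can be a failed estimate, so these values do not show whether TXNIP was expressed. KLF10, a zinc finger repressor, was at 28.5 and 26.4 FPKM in control and at 14.7 and 21.5 FPKM in the 3′ WRE-Mut libraries, the opposite order to ARRDC4 (log2 fold change −0.60, adjusted p = 0.167 in the coding fit).

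Of 7 genes bound both by MYC-MAX and by the repressor dimers, 5 were tested and 0 passed in either fit. Their median log2 fold change was −0.51 against −0.02 for all protein-coding genes. Only 1 of them, CDK4, was above 0, at 72.5 and 67.3 FPKM in control and 78.0 and 98.2 FPKM in the 3′ WRE-Mut libraries (log2 fold change 0.32, adjusted p = 0.379 in the coding fit). LDHA, the lactate dehydrogenase subunit, was at 218 and 256 FPKM in control and at 134 and 141 FPKM in the 3′ WRE-Mut libraries (log2 fold change −0.78, adjusted p = 0.165 in the all-gene fit and 0.0639 in the coding fit). ODC1, the first enzyme of polyamine synthesis, was at 71.3 and 49.2 against 27.9 and 38.1 FPKM (log2 fold change −0.84, adjusted p = 0.0842 in the coding fit). With quantile normalization the coding fit called 3 of the 5 lower, LDHA, ODC1 and NCL (adjusted p = 0.0306, 0.0428 and 0.0483), where it called 11.1% of all protein-coding genes. With the replicate block it called ODC1 (0.0204), where it called 24.6%. As each library was left out, the log2 fold change ran from −0.66 to −0.89 for LDHA and from −0.58 to −1.10 for ODC1. For LDHA and ODC1 alike, every 3′ WRE-Mut value was below every control value, an order that 32.0% of protein-coding genes show. For CDK4 every 3′ WRE-Mut value was above every control value, as in 30.9% of protein-coding genes.

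**Figure D4:**
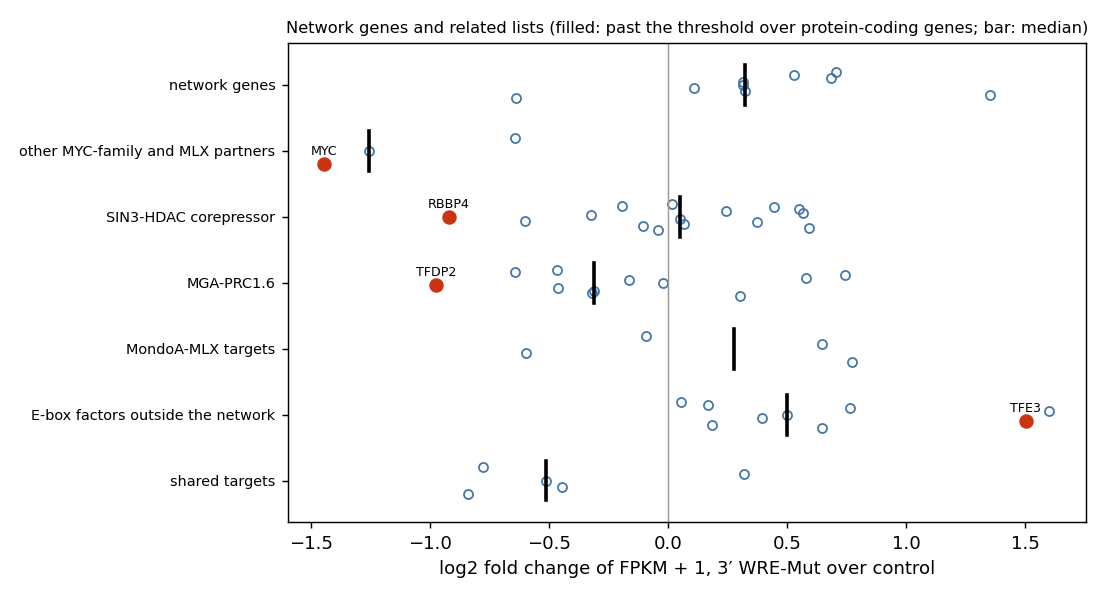
Log2 fold change of FPKM + 1 in 3′ WRE-Mut over control cells for each tested gene of the network and of 6 related lists (vertical position within a row only separates the points), with the median of each list as a bar and the genes past the threshold over protein-coding genes filled and named. In the network row 0 points are filled, and MYC, RBBP4, TFDP2 and TFE3 are the 4 filled genes in the other rows.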

How the data were processed

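According to the labels and methods, the authors filtered reads with CASAVA (1.8.2 in the submitters' processing notes) and the FASTX-Toolkit. Alignment to hg19 used TopHat2 (version 2.0.9). FPKM values and their bounds were made by the authors per library with Cufflinks and the Gencode annotation (2.2.1 in the processing notes, an earlier version in the methods). The authors' second deposited table holds group values with fold changes and p-values of their own comparison and was not used. For 11 genes, none of them in the network, a status column marks a failed estimate in a library. Gene classes and hg19 positions came from Gencode v44lift37, which holds 55535 of the deposited genes.

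In R 4.3.3, limma 3.58.1 modelled log2(FPKM + 1) by group for genes averaging 1 FPKM or more, with a variance trend, Benjamini-Hochberg adjustment over all genes of the fit and a threshold of 0.05, two-sided. A single gene in 2 libraries against 2 cannot go below p = 0.333 in an exact permutation test. The network genes and lists were chosen with earlier results of these data known. Named were all 10 network genes, MYC, genes sharing a deposited locus with a network gene, and, of each related list, those past the threshold or otherwise the 2 with the largest absolute moderated t. SIN3A, SIN3B, CBX3, E2F6, L3MBTL2, YAF2, RYBP, TXNIP, NCL, CDK4, BHLHE40, USF1, USF2, MYCL, MLXIPL and the markers were named after their values were seen. Alternatives were protein-coding genes only, pseudocounts of 0.1 and 0.5, a filter at 0 or at 5 FPKM, quantile normalization or median-ratio scaling, a fit lacking the variance trend, the replicate number taken as a block, and the omission of each library. Both scalings within protein-coding genes were added after the data were seen. The fit was tested on simulated data. Python 3.11.15 and matplotlib 3.10.9 drew the figures.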

Additional observations from a re-analysis of the deposited data

How the results depend on the processing

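Under 20 alternatives, 173 of 179 log2 fold changes of network genes kept their direction and their side of the threshold. The MXD4 log2 fold change of 0.11 became −0.0195 without control replicate 2 in both fits, and it ran from −0.0195 to 0.23 as each library was left out. Called network genes numbered 0 to 2 higher and 0 to 1 lower when each library was left out, the calls being MXD1, MLXIP and MAX without 3′ WRE-Mut replicate 1 over protein-coding genes. That setting called 37.3% of all protein-coding genes, so 3 of 9 is near the background. Omitting 3′ WRE-Mut replicate 2 gave a share of 10.7%, and omitting control replicates 1 and 2 gave 0.653% and 0.705%. Over protein-coding genes, leaving out each library moved the log2 fold change of MGA between 0.43 and 0.94 and that of MLX between 0.34 and 0.72, with no call. With 1 library left in a group, that library is assumed to vary like the other group. With the replicate number as a block, MXD1 was the 1 network gene called over protein-coding genes (limma adjusted p = 7.94e-05), where 24.6% of all protein-coding genes were called. With 2 pairs the numbers cannot be shown to pair the libraries (the correlation of same-numbered deviations was 0.111 over protein-coding genes), and the cause of this gain was not tested. Of the 47 tested genes of the related lists, limma called 0 higher and 0 lower over all genes, where 10 had an unadjusted p under 0.05. Over protein-coding genes it called 1 higher and 3 lower (8.33% of all genes called), 4 and 5 with the replicate block (24.6%), 1 and 4 with median-ratio scaling (9.59%), 1 and 6 with quantile normalization (11.1%), and 0 to 10 higher and 0 to 7 lower without each library, the highest counts being those without 3′ WRE-Mut replicate 1 (37.3%). The network genes whose groups did not overlap numbered 0 by the Cufflinks bounds and 7 by the library values. Without MGA, or with the MXD genes and MXI1 alone, the ratio of repressors to MYC genes differed 4.04-fold and 4.10-fold between the groups. No alternative could be tried on depth, since the table holds no counts.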

Other observations

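The E-box is also bound by basic helix-loop-helix factors that do not pair with MAX or MLX. Of 10 such genes 9 were tested, all 9 had a log2 fold change above 0, and their median was 0.50 against −0.02 for all protein-coding genes. When each library was left out in turn, 7 to 9 of the 9 were above 0. TFE3, a regulator of lysosomal genes, was the 1 that passed, at 13.6 and 10.8 FPKM in control and 29.2 and 44.5 FPKM in the 3′ WRE-Mut libraries (log2 fold change 1.50, limma, adjusted p = 0.0256 among protein-coding genes and 0.154 among all tested genes). Among protein-coding genes its log2 fold change was 1.66 without control replicate 1 and 1.35 without control replicate 2, with no call in either case. BHLHE40, a repressor of the circadian clock, was at 20.6 and 33.5 FPKM in control and at 46.5 and 143 FPKM in the 3′ WRE-Mut libraries (limma, adjusted p = 0.0648 among protein-coding genes). Its log2 fold change among protein-coding genes was 2.40 without 3′ WRE-Mut replicate 1 and 0.80 without replicate 2. For BHLHE40, 3′ WRE-Mut replicate 2 was above all others, as for MXD1. USF1, an upstream stimulatory factor, was at 23.4 and 18.9 against 29.6 and 37.9 FPKM (limma, adjusted p = 0.126 among protein-coding genes), and its paralog USF2, at 66.8 and 67.0 against 64.6 and 89.8 FPKM, overlapped between the groups.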
